A study of Mus musculus with 4 samples.

Results

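The nuclei described here are hypothalamic neurons that carried transcripts of Lmx1a, a LIM-homeodomain transcription factor, together with Slc17a6, the vesicular transporter VGLUT2 that loads glutamate into synaptic vesicles. A nucleus was a member when at least 500 genes were detected in it, at most 5% of its UMIs (unique molecular identifiers, each counting 1 captured RNA molecule) came from mitochondrially encoded genes, and it held at least 2 UMIs of Lmx1a, at least 1 of Slc17a6 and at least 3 of the neuronal RNA Snhg11. Of 54422 nuclei that passed the first pair of limits in 4 libraries, 300 were members. They are called Lmx1a glutamatergic nuclei below.

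The tissue was the microdissected hypothalamus of wild-type C57BL/6J mice with a conventional flora, labelled SPF. The ImP group (2 libraries, ImP 3 and ImP 4) received imidazole propionate, a product of bacterial histidine breakdown, at 350 µg per day, and the vehicle group (2 libraries, vehicle 1 and vehicle 2) received the carrier, which for ImP was sterile water with 1% DMSO. An osmotic pump implanted in the peritoneum delivered it continuously for 2 weeks, so every mouse of both groups carried an implanted pump and had undergone surgery. Nuclei from snap-frozen tissue were sequenced with the droplet-based 10x 3′ chemistry, which reads the ends of transcripts and says nothing on protein. The labels state neither age nor sex, nor how many animals went into a library. The p-values below therefore rest on 4 libraries, and the spread between them may be technical. Where kinds of nuclei were compared within libraries, the spread between libraries was taken out by the fit. There the variance came from a trend shared by all genes, not from each gene's own spread over the libraries.

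Lmx1a and its paralogue Lmx1b act in the floor and roof plates of the embryonic neural tube and in the ventral midbrain, where they take part in the specification of dopamine neurons. In the adult brain Lmx1a also marks a band of glutamatergic neurons that runs forward from the midbrain into the posterior hypothalamus, through the supramammillary, premammillary and subthalamic areas. Foxp2, a forkhead repressor, Ebf2, a helix-loop-helix factor of the olfactory-1 and early B-cell family, and Pbx3, a TALE homeodomain cofactor, are among the factors known from these areas.

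The members were chosen on measured values of Lmx1a, Slc17a6 and Snhg11, and these genes are described without a test. Members carried a median of 2 Lmx1a UMIs and at most 7, and a median of 1 Slc17a6 UMI and at most 9. Just outside the rule stood 387 glutamatergic nuclei with exactly 1 Lmx1a UMI (98, 76, 129 and 84 in vehicle 1, vehicle 2, ImP 3 and ImP 4) and 181 neurons with at least 2 Lmx1a UMIs and no Slc17a6 UMI. The nuclei on both sides of these limits were close in Foxp2, while some other markers rose with the Lmx1a count when the libraries were pooled. Lmx1b was detected in 19.1% of the nuclei with 1 Lmx1a UMI, 25.1% of members with 2, 27.1% of members with 3 and 29.0% of members with 4 or more, against 1.09% of glutamatergic nuclei with none. Foxp2 was detected in 48.8%, 52.5%, 54.2% and 53.2% of the same classes, against 16.3% of nuclei with no Lmx1a UMI. In the neurons without a Slc17a6 UMI the shares were 26.0% for Lmx1b, 55.3% for Foxp2 and 20.4% for Ebf2. Nr4a2 rose across the classes with 1, 2, 3 and 4 or more Lmx1a UMIs (13.4%, 19.6%, 23.7% and 29.0%). Ebf2 rose as well (23.3%, 24.0%, 37.3% and 38.7%), and Pbx3 did not rise steadily (53.2%, 57.0%, 59.3% and 51.6%). Members had a higher median depth than the nuclei with 1 Lmx1a UMI in every library.

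Of the genes whose promoter sequence was at hand, Lmx1a itself and its paralogue Lmx1b are shown, because the nuclei are defined by the first and the second had the largest fold difference among the 4 markers of the label that the rule did not use. The 250 bases before each annotated start are from RefSeq (GRCm38.p6). They lie at chr1:167689308-167689557 on the plus strand for Lmx1a and at chr2:33641099-33641348 on the minus strand for Lmx1b. Capitals mark CCCNNGGG, the core of the palindrome bound by Ebf-type factors, and TAATTA, the homeodomain core, was searched for as well on both strands.

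Lmx1a: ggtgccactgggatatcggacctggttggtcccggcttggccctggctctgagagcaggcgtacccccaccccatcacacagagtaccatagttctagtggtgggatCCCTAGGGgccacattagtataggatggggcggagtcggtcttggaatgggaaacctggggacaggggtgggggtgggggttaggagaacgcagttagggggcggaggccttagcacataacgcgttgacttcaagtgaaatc

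Lmx1b: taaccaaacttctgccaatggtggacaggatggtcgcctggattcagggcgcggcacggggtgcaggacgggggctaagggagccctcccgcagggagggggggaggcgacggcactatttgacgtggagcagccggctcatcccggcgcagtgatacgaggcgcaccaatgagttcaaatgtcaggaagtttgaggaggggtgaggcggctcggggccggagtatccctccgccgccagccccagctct

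The Lmx1a window holds 1 CCCNNGGG match and the Lmx1b window none, and neither holds TAATTA. Among 27025 promoters of the same length, 11.7% hold CCCNNGGG and 4.90% hold TAATTA. The match is a description of these letters only.

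Library facts that touch the results are these. The 4 libraries held 10917, 13023, 14757 and 15725 quality-filtered nuclei (vehicle 1, vehicle 2, ImP 3, ImP 4) from 48060194 to 51945297 UMIs per library, and the members' sums came to 874255, 348816, 643476 and 324786 UMIs. The members' median depth was 8114, 7194, 5964 and 5151 UMIs per nucleus, above that of the 11499 other glutamatergic nuclei (no Lmx1a UMI, same Slc17a6 and Snhg11 limits), whose medians were 5413, 4679, 4073 and 4075. A minimum of 2 UMIs of a sparse gene selects deep nuclei, and both kinds were shallower under ImP. ImP 4 carried pituitary RNA: Gh, growth hormone, stood at 6.86, 8.60, 14.0 and 1515 CPM (UMIs of a gene scaled to a common total per library and kind of nuclei) in the members and at 17.3, 5.23, 19.8 and 1230 CPM in the other glutamatergic nuclei. Between 35 and 67 barcodes were shared by any pair of libraries, and none of these belonged to a member. No doublet caller was run; leaving out nuclei with glial or vascular markers served in its place.

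The label of posterior hypothalamic glutamatergic neurons was compared with markers the rule did not use. The members and the marker lists were chosen with earlier results of these data known, so the comparison describes the nuclei and is no independent evidence. All 4 remaining markers of the label, Lmx1b, Foxp2, Ebf2 and Pbx3, were higher in the members than in the other glutamatergic nuclei in every library, as were 5.66% of all genes tested, while 19.7% of all genes were lower in every library. Of the markers of midbrain dopamine neurons, 4 were at or near 0: Th, tyrosine hydroxylase, had 1, 3, 2 and 0 UMIs, the dopamine transporter gene Slc6a3 had 0, 1, 0 and 0, and En1 and Pitx3 had 1 UMI each in all members. Other genes of dopamine neurons, Nr4a2, Foxa1, Ddc and Slc18a2, were higher in the members than in the other glutamatergic nuclei, with the values given below. The mammillary marker Foxb1 had no UMI among 2191333, which with 3 counts as the floor over all members allows up to 1.37 CPM, so its pooled level was at least 2.33-fold lower than the 3.19 CPM of the other glutamatergic nuclei. In the test against those nuclei, described below, Foxb1 passed (edgeR adjusted p = 0.0356). Its call was lost without vehicle 1, vehicle 2, ImP 3 or ImP 4 (edgeR adjusted p = 0.216, 0.0876, 0.226 and 0.0852). It was also lost with DESeq2 (DESeq2 adjusted p = 0.299). The astrocyte, oligodendrocyte, precursor, microglial and vascular markers, 25 genes, summed to 318 to 563 CPM in the members, 471 to 703 CPM in the other glutamatergic nuclei and 11240 to 11859 CPM in nuclei of the oligodendrocyte type, and between 6 and 10 of the 25 genes were at 0 in a library of members.

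Lmx1a glutamatergic nuclei made up between 0.346% and 0.916% of a library. At full depth the share differed more within each treatment group than between the groups, and with every nucleus thinned to equal UMIs the order of the libraries changed. At full depth, vehicle 1 held 100 of 10917 nuclei (0.916%, exact 95% binomial interval 0.746% to 1.11%) and vehicle 2 held 45 of 13023 (0.346%, 0.252% to 0.462%). ImP 3 held 99 of 14757 (0.671%, 0.546% to 0.816%) and ImP 4 held 56 of 15725 (0.356%, 0.269% to 0.462%). Vehicle 1 and ImP 3 were thus high, vehicle 2 and ImP 4 low, and the groups overlapped. The intervals cover counting error only. The mean share was 0.631% with vehicle and 0.514% with ImP, a ratio of 0.814 (exact permutation test over the 4 libraries, two-sided, p = 1; the smallest p that 2 against 2 allows is 0.333).

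**Figure D1:**
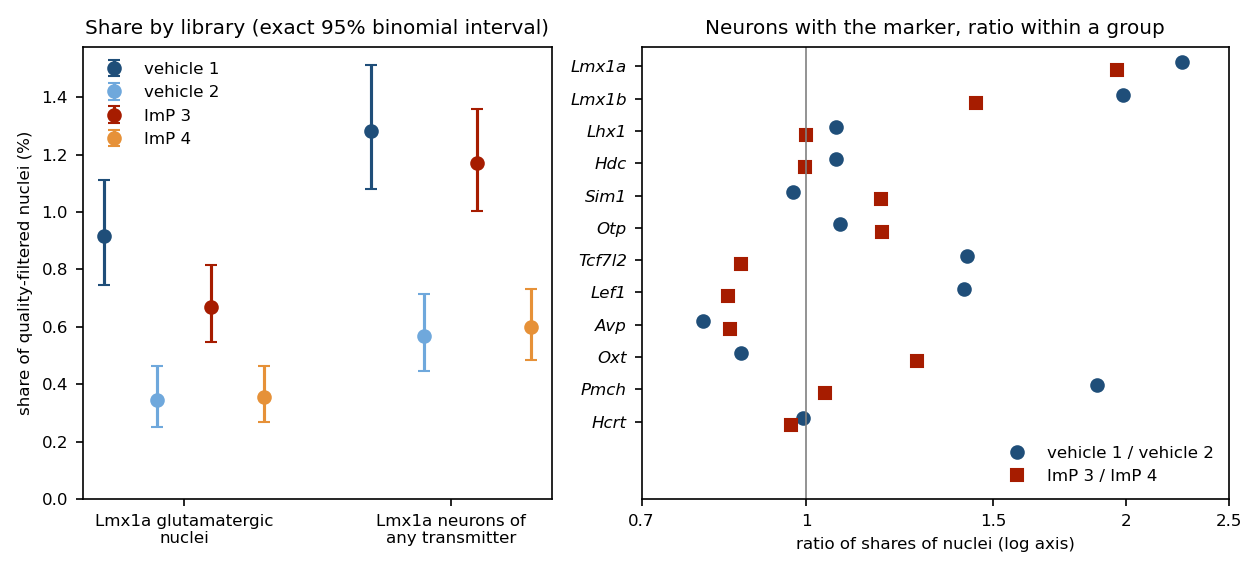
The left panel plots the share of quality-filtered nuclei (%) that were Lmx1a glutamatergic, or Lmx1a neurons of any transmitter, for each library with its exact 95% binomial interval; the right panel plots, on a log axis, the ratio of the share of nuclei with a regional marker between the libraries of 1 group. No thinning was applied. Vehicle 1 and ImP 3 lie above vehicle 2 and ImP 4 on the left, and on the right Lmx1a and Lmx1b have both ratios above 1.4.

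Within the vehicle group the share was 2.65 times as high in vehicle 1 as in vehicle 2, and within the ImP group it was 1.88 times as high in ImP 3 as in ImP 4. The names of vehicle 1 and ImP 3 share a first number, as do those of vehicle 2 and ImP 4, and the labels do not say what that number stands for. Compared within these pairs, the ImP share was 0.732 times that of vehicle 1 and 1.03 times that of vehicle 2. The split was not particular to the Slc17a6 limit: neurons with at least 2 Lmx1a UMIs and any transmitter made up 1.28%, 0.568%, 1.17% and 0.598% of the libraries. Members were 3.61%, 1.55%, 3.04% and 1.72% of all glutamatergic neurons. The same libraries were therefore high whether all nuclei or only glutamatergic ones formed the denominator.

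Other regional markers were set beside this split. Neurons with at least 2 UMIs of Lmx1b were 1.99 times as frequent in vehicle 1 as in vehicle 2 and 1.45 times as frequent in ImP 3 as in ImP 4. For Lhx1, a marker of mammillary and other neurons, the ratios were 1.07 and 1.00, for the histamine-synthesis gene Hdc 1.07 and 0.997, and for Sim1, a marker of paraventricular-type neurons, 0.972 and 1.18. The mammillary markers Lhx5 and Foxb1 went the other way to Lmx1a in both pairs, on small counts. Lhx5 had ratios of 0.795 and 0.50 (10, 15, 8 and 17 neurons in vehicle 1, vehicle 2, ImP 3 and ImP 4). Foxb1 had ratios of 0 and 0.710 (0, 7, 4 and 6 neurons). Tcf7l2, frequent in thalamic neurons, had ratios of 1.42 and 0.868, and Pmch, the melanin-concentrating hormone gene, 1.88 and 1.04 (at least 10 UMIs). At full depth Lmx1a and Lmx1b neurons thus differed the same way in both pairs, and those of the other groups did not all follow. The part that dissection or animals play in this was not tested.

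These shares were also counted with the nuclei brought to equal UMIs. Over all quality-filtered nuclei, median depth was 3757, 3179, 2852 and 2820 UMIs in vehicle 1, vehicle 2, ImP 3 and ImP 4. That order differs from the order of the shares. With every nucleus thinned to 2000 UMIs and the limits on UMIs kept, the Lmx1b ratios were 1.11 and 1.07. They rest on 4 against 4 and 1 against 1 nuclei, too few to show whether the Lmx1b split remained at equal UMIs. For neurons with at least 2 Lmx1a UMIs and any transmitter the thinned ratios were 1.70 and 1.81. Members by the full rule were only 4, 5, 16 and 7 nuclei after this thinning (0.0480%, 0.0541%, 0.161% and 0.0660%), a ratio of 0.887 between the vehicle libraries and 2.44 between the ImP libraries. With 1 Lmx1a UMI as the minimum the thinned shares were 0.552%, 0.325%, 0.675% and 0.368%, which keeps the order seen at full depth within each group. Thinned to 4000 UMIs, which leaves out more shallow nuclei, members were 22 of 5076, 16 of 4788, 33 of 4403 and 25 of 4478 nuclei (0.433%, 0.334%, 0.750% and 0.558%). Both ImP libraries lay above both vehicle libraries in this count and under the full rule at 2000 UMIs (exact permutation test over the 4 libraries, two-sided, p = 0.333 in both, the smallest possible). The ratio of ImP to vehicle, 0.814 at full depth, was 2.23, 1.19 and 1.70 in these 3 thinned counts. At full depth it was 1.49 without vehicle 1 and 1.06 without ImP 4. The direction of the ImP difference in the share thus changed with depth and with the libraries used.

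Against the other glutamatergic nuclei of the same libraries, the members differed in 913 of 15994 genes tested (5.71%), of which 507 were higher (3.17%) and 406 lower (2.54%; edgeR's quasi-likelihood test on UMIs summed per library and kind of nuclei, library as a block, Benjamini-Hochberg adjusted p under 0.05). Here and below, levels are CPM of the summed UMIs in the order vehicle 1, vehicle 2, ImP 3, ImP 4, differences are log2 fold changes with their standard errors (SE), and a gene is called higher or lower only where it passed. The higher genes included the transcription factors Lmx1b, Irx5, Nr4a2 and Ebf2 and the guidance molecule Ntn1, and the lower ones the factors Sim1, Sox5 and Isl1. The gene lists used to group the results were drawn up with earlier results of these data known, so their counts describe the nuclei and are no independent evidence.

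Lmx1b stood at 44.6, 68.8, 35.7 and 61.6 CPM in the members against 2.05, 1.99, 3.27 and 2.07 CPM in the other glutamatergic nuclei, a log2 difference of 4.49 (SE 0.28, edgeR adjusted p = 5.12e-56). The gene annotated as C130021I20Rik overlaps Lmx1b and was higher as well, and the labels do not state how the counting handled strand, so reads of overlapping genes cannot be told apart. Lmx1b was detected in 26.3% of members (11.0% after thinning to 2000 UMIs), 1.09% of other glutamatergic nuclei and 0.270% of oligodendrocyte-type nuclei, which should lack it. Those oligodendrocyte-type nuclei were shallower, with median depths of 1646 to 1940 UMIs.

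Foxp2 reached 491, 582, 416 and 557 CPM against 184, 119, 150 and 136 (log2 1.84, SE 0.085), and Pbx3 reached 372, 573, 357 and 530 CPM against 115, 111, 124 and 123.2 (log2 1.98, SE 0.085). The lowest member library lay above the highest of the others for both genes. Foxp2 was detected in 53.0% of members and 16.3% of other glutamatergic nuclei, and Pbx3 in 56.3% and 25.5%, while oligodendrocyte-type nuclei gave 1.89% and 15.3%. The Pbx3 background of 15.3% is high, so a single Pbx3 UMI marks a nucleus less surely than a Foxp2 UMI.

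Ebf1, Ebf2 and Ebf3 were all higher. Ebf2, known from migrating and projecting neurons, stood at 199, 135, 193 and 200 CPM against 20.2, 20.3, 28.0 and 19.8 (log2 3.13, SE 0.12, edgeR adjusted p = 1.03e-147). Ebf3 stood at 144, 123.3, 140 and 105 CPM against 37.1, 32.8, 33.4 and 28.9 (log2 2.04). Ebf1 was more variable, at 170, 232, 278 and 102 CPM against 93.5, 112, 100 and 101 (log2 1.05), and its ImP 4 level lay within the range of the other glutamatergic nuclei.

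Barhl2, a homeodomain factor of the subthalamic and premammillary areas, was detected in 6.00% of members against 0.704% of the others (log2 2.71), and Foxa1, a forkhead factor of the floor plate and of dopamine and subthalamic neurons, in 4.0% against 0.287% (log2 3.04). Foxa1 rested on 7, 2, 2 and 1 UMIs, and its call was lost without vehicle 1 (edgeR adjusted p = 0.255). Nr4a2, the nuclear receptor Nurr1 that midbrain dopamine neurons need, was higher at 62.9, 65.9, 29.5 and 18.5 CPM against 5.39, 3.03, 4.43 and 5.63 (log2 3.35, SE 0.26). Th and Slc6a3, which accompany it in dopamine neurons, were near 0 in the same nuclei.

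Of the 38 posterior diencephalic factors tested, 20 were higher and 14 lower (all genes tested: 3.17% higher, 2.54% lower). Their median log2 difference was 0.47, against -0.04 over all genes. The list holds factors of neighbouring regions too. Irx5, an Iroquois factor, stood at 38.9, 17.2, 20.2 and 33.9 CPM against 2.18, 1.58, 2.33 and 1.57 (log2 3.89). Crnde and Irx3, which lie next to each other and to Irx5 in the RefSeq annotation, were higher too, by 3.61 and 2.64 on the log2 scale. The Irx3 call rested on 12 UMIs in all and was lost without vehicle 2 (adjusted p = 0.0553) or ImP 3 (adjusted p = 0.165, both edgeR).

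On the lower side, Sim1, which marks paraventricular and mammillary glutamatergic neurons, stood at 6.86, 0, 6.22 and 3.08 CPM in the members against 92.3, 109, 100 and 89.5 (log2 -4.19, SE 0.25). Sox5, a factor widespread among glutamatergic neurons, stood at 61.8, 48.7, 66.8 and 55.4 CPM against 312, 332, 331 and 325 (log2 -2.36, SE 0.12). Every member library was below every library of the others for both. Nkx2-1, which patterns the ventral hypothalamus, was lower by a log2 difference of -2.65, and Sfta3-ps, its neighbour on the chromosome, by -3.91. Meis2 (-3.15), Lhx1 (-2.53), Tcf7l2 (-2.21) and Nr2f2 (-1.32) were lower as well. With Lmx1a at 3 or more UMIs the calls of Nkx2-1 and Lhx1 were lost (edgeR adjusted p = 0.0555 and 0.224).

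Among 17 factors of other hypothalamic regions, none was higher and 3 were lower: Isl1, an arcuate and GABAergic-lineage LIM factor (log2 -2.65), Otp, the neuroendocrine homeodomain factor (-1.83), and Six3 (-1.80). Over all genes tested, 3.17% were higher and 2.54% lower. The members held at most 3 UMIs of each of Isl1, Otp and Six3 per library. The Isl1 call was lost with at least 2 Slc17a6 UMIs (edgeR adjusted p = 0.0779). The Otp call was lost without vehicle 1, vehicle 2 or ImP 3 (edgeR adjusted p = 0.344, 0.0774 and 0.182) and the Six3 call without vehicle 1, vehicle 2 or ImP 4 (0.495, 0.0501 and 0.0906).

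**Figure D2:**
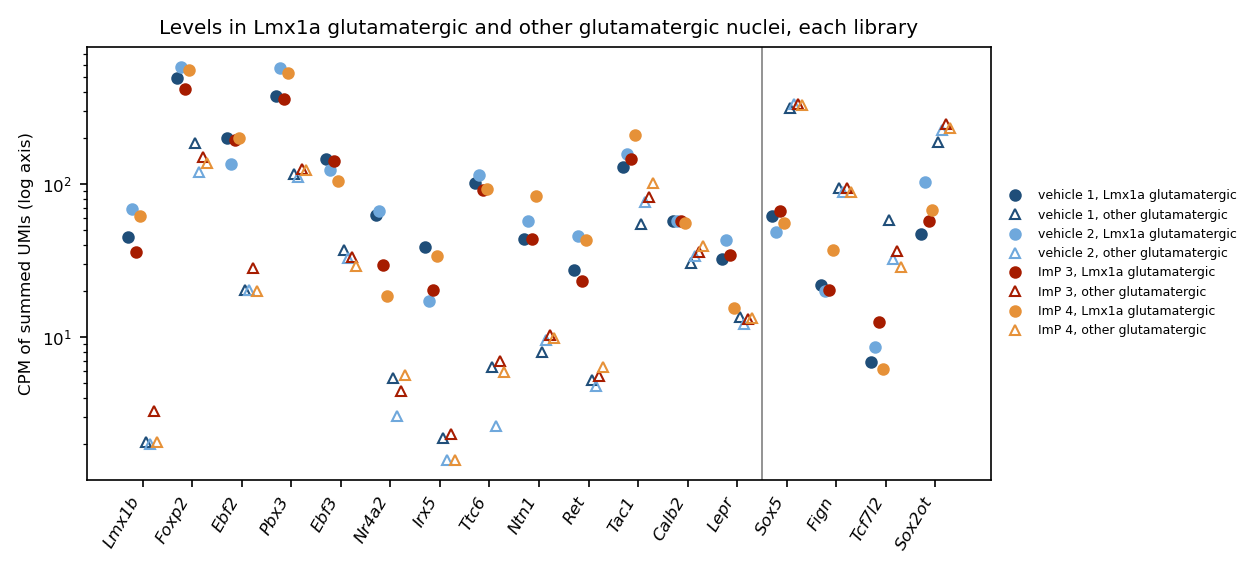
Each point is the level of a gene, in CPM of summed UMIs on a log axis, in 1 library, for Lmx1a glutamatergic nuclei (filled circles) and other glutamatergic nuclei (open triangles); a level of 0 would not be drawn. For the 13 genes left of the line the circles lie above the triangles in every library (Lmx1b 35.7 to 68.8 against 1.99 to 3.27 CPM), and for Sox5, Fign, Tcf7l2 and Sox2ot right of it they lie below.

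The genes with the largest differences, chosen by a rule that took up to 15 of the largest passing log2 fold changes in each direction with a mean of at least 20 CPM and the same sign in every library, reached beyond transcription factors. Cnbd1, a gene with a cyclic nucleotide-binding domain, led at 50.3, 28.7, 24.9 and 89.3 CPM against 0.835, 0.550, 1.82 and 0.357 (log2 5.71, SE 0.33). Ttc6 followed Lmx1b at 102, 115, 91.7 and 92.4 CPM against 6.36, 2.61, 6.98 and 5.92 (log2 4.25, SE 0.19). Ttc6 overlaps Foxa1 in the annotation, and the reads of the pair cannot be told apart here.

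Ret, the receptor tyrosine kinase for the glial cell line-derived neurotrophic factor family, stood at 27.5, 45.9, 23.3 and 43.1 CPM against 5.20, 4.74, 5.60 and 6.35 (log2 2.66). Ntn1, the axon guidance cue netrin-1, stood at 43.5, 57.3, 43.5 and 83.1 CPM against 7.96, 9.56, 10.3 and 9.84 (log2 2.60). The Wnt signalling enhancer Rspo2 was higher by 2.44, the adhesion protein netrin-G2, Ntng2, by 2.36 and the cadherin Cdh23 by 2.98. Dnaaf6b (3.51) and Tbc1d8b (2.38) were also in the higher set.

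The lower set held Trh, the thyrotropin-releasing hormone precursor, at 10.3, 2.87, 10.9 and 21.6 CPM against 38.7, 46.1, 36.6 and 54.8 (log2 -1.85), and the RNAs Sox1ot (-3.01), Sox5os4 (-2.83) and Sox2ot (-1.71). These 3 RNAs lie beside or over Sox-family genes. The others were Myo5b (-2.80), Tanc1 (-2.54), the KIT ligand Kitl (-1.96), the microtubule-severing gene Fign (-1.90), the clock-related factor Npas2 (-1.74) and Prr5l (-1.67). The Prr5l call was lost when nuclei with glial or vascular markers were left out (edgeR adjusted p = 0.412), and that of Kitl with Lmx1a at 3 or more UMIs (adjusted p = 0.0925).

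**Figure D3:**
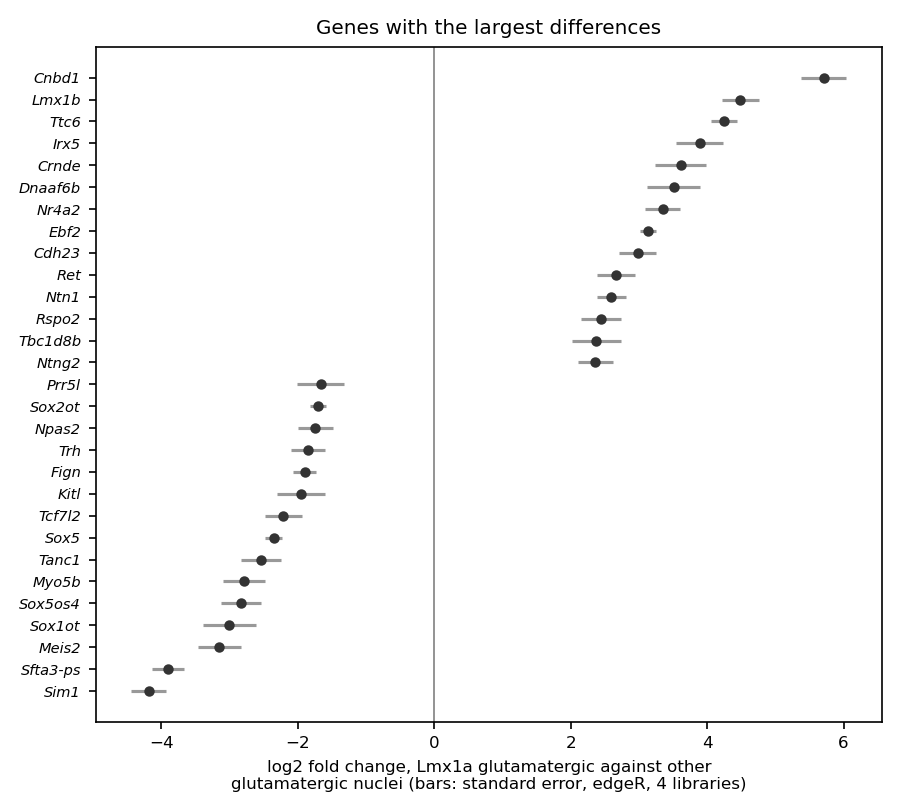
The points are log2 fold changes of Lmx1a glutamatergic against other glutamatergic nuclei and the bars their standard errors (edgeR, 4 libraries), for genes with the largest differences in each direction. They run from -4.19 for Sim1 to 5.71 for Cnbd1.

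Genes of other transmitter systems were mostly low. Slc17a7, the transporter VGLUT1, had no UMI and Slc17a8, VGLUT3, had 2, 0, 1 and 0. Of 6 genes for GABA synthesis and release, 4 were lower, against 2.54% of all genes tested. They included Gad2, glutamate decarboxylase, at 17.2, 17.2, 42.0 and 43.1 CPM against 55.7, 67.9, 77.6 and 77.2 (log2 -1.17). Gad1 (-1.13) and the vesicular transporter gene Slc32a1 (-0.86) were lower too. The Slc32a1 call was lost without vehicle 2, ImP 3 or ImP 4 (edgeR adjusted p = 0.166, 0.289 and 0.205). With at least 2 Slc17a6 UMIs asked for on both sides, an alternative chosen after seeing the data, none of the 6 was lower, Slc32a1 turned to a log2 difference of 0.04 (edgeR adjusted p = 0.992) and Gad2 to -0.49 (adjusted p = 0.438). Gad2 was also detected in 6.62% of oligodendrocyte-type nuclei, against 12% of members and 20.5% of the other glutamatergic nuclei.

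Of 11 dopamine and monoamine genes tested, Ddc and Slc18a2 were higher and the dopamine receptor gene Drd3 lower (all genes tested: 3.17% higher, 2.54% lower). The Drd3 call was lost without vehicle 1 (edgeR adjusted p = 0.0881). Ddc, the decarboxylase that makes dopamine and serotonin from their precursors, stood at 40.0, 80.3, 10.9 and 46.2 CPM against 18.6, 18.8, 18.4 and 17.3 (log2 1.19, SE 0.20), and ImP 3 lay below the other glutamatergic nuclei. Slc18a2, the vesicular monoamine transporter VMAT2, stood at 32.03, 40.1, 26.4 and 55.4 CPM against 19.8, 17.2, 20.4 and 16.8 (log2 1.00, SE 0.21), and its call was lost with Lmx1a at 3 or more UMIs (edgeR adjusted p = 0.897) and with at least 2 Slc17a6 UMIs (0.134). Th, the first enzyme of dopamine synthesis, was found in 1.67% of members and 0.852% of the other, shallower glutamatergic nuclei. Its log2 difference of 0.43 (SE 0.74) did not pass (edgeR adjusted p = 0.895).

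Of 30 neuropeptide genes, only Tac1 was higher (all genes tested: 3.17% higher). Tac1, the precursor of substance P and a marker of supramammillary neurons, stood at 128, 158, 145 and 209 CPM against 54.7, 76.0, 81.7 and 101 (log2 1.11, SE 0.10). It was detected in 44.7% of members, 24.3% of the other glutamatergic nuclei and 14.7% of oligodendrocyte-type nuclei, and after thinning in 25%, 13.4% and 12.6%. The calcium-binding protein calretinin, Calb2, which is also used to mark supramammillary neurons, stood at 57.2, 57.3, 57.5 and 55.4 CPM against 30.6, 33.9, 36.0 and 39.4 (log2 0.82, SE 0.16). Its call was lost with Lmx1a at 3 or more UMIs (log2 0.67, edgeR adjusted p = 0.135) and with at least 2 Slc17a6 UMIs (0.56, adjusted p = 0.230). Nts, neurotensin, had a log2 difference of -0.39 and Cck, cholecystokinin, one of -0.004, and neither passed (edgeR adjusted p = 0.286 and 0.997).

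The 9 lower peptide genes were Tac2, Trh, Hcrt, Sst, Avp, Gal, Pmch, Oxt and Cartpt (all genes tested: 2.54% lower). Avp, vasopressin, stood at 93.8, 97.5, 154 and 302 CPM against 198, 304, 291 and 421 (log2 -0.89), and oligodendrocyte-type nuclei, which should lack it, held 279, 483, 494 and 746. Peptide RNA was thus found in all 3 kinds of nuclei, and the 38 peptide genes of the list summed to 1352 to 2722 CPM in the members, 1810 to 3190 in the other glutamatergic nuclei and 2177 to 4821 in oligodendrocyte-type nuclei. Median depth ran the other way, with members the deepest. Without the library as a block, 2 peptide genes were lower.

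Ribosomal protein and mitochondrially encoded RNA were set beside these. Of 82 cytosolic ribosomal protein genes, 17 were lower and none higher (median log2 -0.31), and of 13 mitochondrially encoded genes 9 were lower (median -0.35). Over all genes tested, 2.54% were lower. Among nuclei with 3000 to 20000 UMIs, 1 ribosomal and 7 mitochondrial genes were lower, and without the library as a block none was. Their part in the other differences was not tested.

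Of 37 receptors for peptides and hormones, 5 were higher and 1 lower (all genes tested: 3.17% higher, 2.54% lower). The leptin receptor gene Lepr stood at 32.03, 43.0, 34.2 and 15.4 CPM against 13.4, 12.2, 13.1 and 13.3 (log2 1.36, SE 0.23). Tacr3, the neurokinin 3 receptor for tachykinins, stood at 19.5, 28.7, 18.7 and 24.6 CPM against 8.86, 7.56, 10.0 and 8.84 (log2 1.36, SE 0.29). Hcrtr2, the orexin 2 receptor, stood at 81.2, 86.0, 93.2 and 120 CPM against 48.2, 48.0, 55.5 and 45.8 (log2 0.97, SE 0.13). The mineralocorticoid receptor Nr3c2 was higher by less (0.33), and the calcitonin receptor Calcr lower (-0.79). The Nr3c2 and Calcr calls were each lost without vehicle 1 (edgeR adjusted p = 0.442 and 0.459) and without ImP 3 (0.130 and 0.516), and that of Calcr also without ImP 4 (0.205).

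Of 61 receptors for classical transmitters, 10 were higher and 4 lower (all genes tested: 3.17% higher, 2.54% lower). Htr2c, the serotonin 2C receptor, stood at 1368, 777, 1119 and 1247 CPM against 423, 371, 436 and 369 (log2 1.55, SE 0.083), and Chrm3, the muscarinic M3 receptor, at 837, 791, 936 and 865 CPM against 349, 264, 292 and 322 (log2 1.56, SE 0.083). The glycine receptor subunits Glra2 (1.03) and Glra3 (0.99) and the kainate receptor subunit Grik2 (0.69) followed, with Grm8, Grik3, Chrm2 and Gabbr2 among those higher by less. Htr2a, the serotonin 2A receptor, was lower, at 6.86, 11.5, 14.0 and 6.16 CPM against 23.5, 27.2, 28.1 and 30.2 (log2 -1.39), a call lost with Lmx1a at 3 or more UMIs (edgeR adjusted p = 0.0986). The serotonin receptors of the 2A and 2C type thus differed in opposite directions.

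Of 52 channel genes, 11 were higher and 7 lower (all genes tested: 3.17% higher, 2.54% lower). Kcnq5, an M-current potassium channel, stood at 1366, 1224, 1138 and 825 CPM against 698, 709, 716 and 736 (log2 0.74), and Kcnj6, the G protein-gated channel GIRK2, at 251, 370, 219 and 283 CPM against 158, 169, 176 and 170 (log2 0.77). The adhesion and axon guidance list had 33 of 72 higher and 13 lower, with a median log2 of 0.19. Beside Ntn1 and Ntng2, the secreted semaphorin Sema3c (1.49), netrin-G1 (Ntng1, 0.93) and the ephrin receptor Epha3 (0.91) were higher. With Lmx1a at 3 or more UMIs the Sema3c difference fell to 0.39 and its call was lost (edgeR adjusted p = 0.773). Epha4 (-0.86), Efna5 (-0.76) and Cdh6 (-0.73) were lower.

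None of the 12 immediate early genes, 11 glucocorticoid-induced genes and 17 chaperone genes passed in either direction. Over all genes tested 5.71% passed, and at that share lists this short would hold few calls. Of 19 glial and vascular genes tested 2 were lower in the members, among them the myelin gene Mbp (-0.51). The 3 pituitary genes did not pass.

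The members were not uniform. Foxp2 was detected in 159 of the 300 nuclei and Ebf2 in 89, but both in only 30; 129 held Foxp2 alone, 59 Ebf2 alone and 82 neither. Foxp2 was detected in 33.7% of nuclei with Ebf2 and 61.1% of those without, and it was less frequent with Ebf2 in each library: 40.6% against 61.8%, 7.69% against 65.6%, 35.7% against 59.2% and 37.5% against 60%. Nuclei with both were the deepest in each library, with medians of 10689, 8277, 7817 and 6168 UMIs. These medians rest on 13, 1, 10 and 6 nuclei, so the vehicle 2 value is that of 1 nucleus. Pbx3 went with Foxp2 and was detected in 73.0% of nuclei with Foxp2 and 37.6% of those without (78.2% against 35.6%, 72.7% against 52.2%, 57.7% against 29.8% and 90.0% against 42.3% by library). This division was chosen after the values had been seen, and its values are a description without a test.

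Summed over the nuclei with only 1 of these genes, the Ebf2 side carried Ebf3 at 315, 268, 345 and 435 CPM and the Foxp2 side at 52.2, 24.8, 71.6 and 6.52, a ratio of 7.13 in the pooled UMIs. Pbx3 was the reverse, with 111, 95.7, 270 and 166 CPM on the Ebf2 side and 547, 700, 471 and 828 on the Foxp2 side, a ratio of 3.88. The groups did not overlap for either gene. These genes and those that follow were picked after their values were seen. No share of all genes that differ the same way in all 4 libraries is given. Agreement between libraries therefore has no background to be read against here. The Ebf2 side held only 19 nuclei in vehicle 1, 12 in vehicle 2, 18 in ImP 3 and 10 in ImP 4. Pcdh15, a protocadherin, was 2.56 times as high on the Ebf2 side, the orphan nuclear receptor gene Rorb 2.46 times, the cadherin Cdh18 2.42 times, the muscarinic M2 receptor Chrm2 2.31 times and the GABA-A receptor subunit Gabrg3 2.22 times, each in all 4 libraries.

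On the Foxp2 side, Ddc was 7.71 times as high (82.4, 130, 26.4 and 71.7 against 0, 19.1, 0 and 41.4 CPM), on 69 against 4 UMIs. Nts was 6.41 times as high on 43 against 3 UMIs, and Ret 3.93 times (38.5, 68.2, 30.1 and 71.7 against 18.5, 19.1, 0 and 0 CPM). Counts this small make the ratios of Ddc, Nts and Ret imprecise. Better counted were Glra3 at 3.24 times and Ttc6 at 3.25 times. Lmx1b was 1.88 times as high on the Foxp2 side in the pooled UMIs. Ddc, Ret, Glra3 and Ttc6, all higher in the members as a whole, were thus higher on the Foxp2 side than on the Ebf2 side in each library, and Ebf3 the reverse. Tac1 was alike on both sides in the pooled UMIs (ratio 1.04), and Irx5 as well (0.983).

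**Figure D4:**
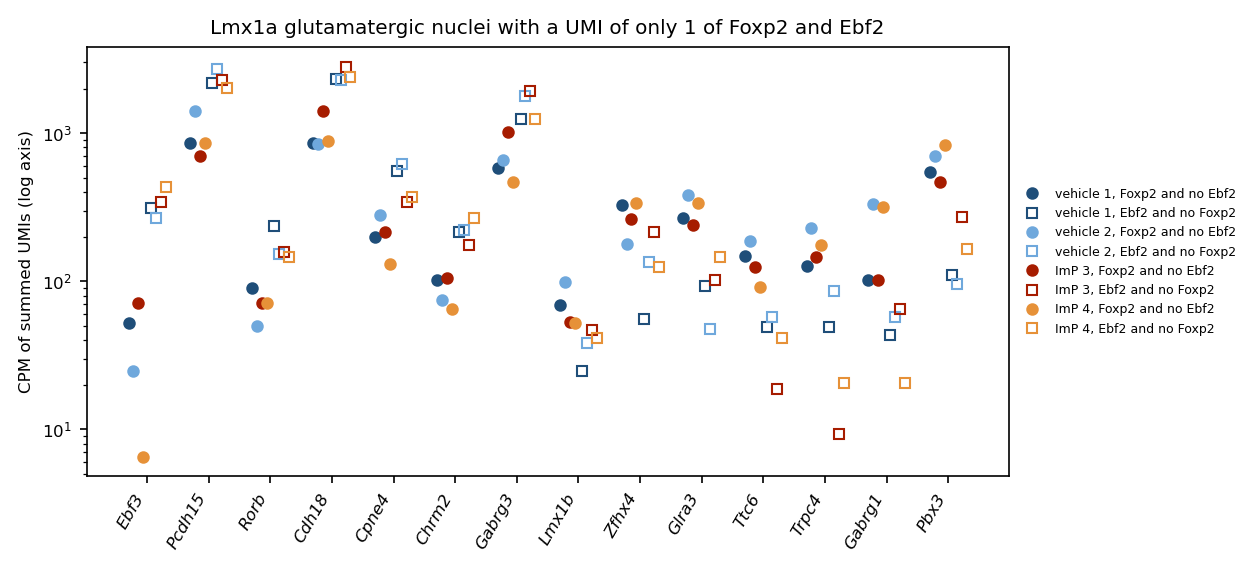
Levels in CPM of summed UMIs on a log axis, by library, of genes in members with a Foxp2 and no Ebf2 UMI (filled circles) and with an Ebf2 and no Foxp2 UMI (open squares). From Ebf3 to Gabrg3 the squares lie above the circles in every library and from Lmx1b to Pbx3 below; the genes were chosen after their values were seen.

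ImP and vehicle libraries were then compared within the members. Of 7538 genes tested none passed (0.0%; 361 had an unadjusted p under 0.05 by edgeR and 48 by DESeq2, which also called none). The test was also run on simulated counts, drawn with the same fixed dispersion for every gene, which was not estimated from these data. At that setting it recovered only 11 of 99 genes changed by a log2 of 1, so the lack of calls does not show a lack of change. In 32.8% of genes the 2 ImP libraries did not overlap the 2 vehicle libraries, 17.7% with both ImP libraries above and 15.1% with both below. Leaving out 1 library gave 11 calls without vehicle 1, 19 without vehicle 2, 23 without ImP 3 and 2 without ImP 4.

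The gene with the smallest p was Cdh12, a classical cadherin of neuronal contacts. It stood at 193 and 155 CPM in the vehicle libraries and 378 and 422 in the ImP libraries, a log2 difference of 1.15 (SE 0.19, edgeR adjusted p = 0.261). Both ImP libraries lay above both vehicle libraries, yet the other glutamatergic nuclei held 434, 398, 436 and 393 CPM with no such step. Cdh12 passed without vehicle 1, vehicle 2 or ImP 3 (edgeR adjusted p = 0.0114, 0.024 and 0.00352). Tox, a nuclear HMG-box protein gene, stood at 97.2 and 74.5 CPM with vehicle and 174 and 185 with ImP (log2 0.99, SE 0.21, adjusted p = 0.662, edgeR). Pappa2, a protease that cleaves insulin-like growth factor binding proteins, stood at 34.3 and 14.3 CPM against 71.5 and 77.0 (log2 1.38, adjusted p = 0.662, edgeR), on as few as 5 UMIs in vehicle 2.

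Among genes lower under ImP, Nr4a2, named above as set apart in the members, had the smallest p, at 62.9 and 65.9 CPM with vehicle and 29.5 and 18.5 with ImP (log2 -1.33, SE 0.33, edgeR adjusted p = 0.662). Tafa1, a secreted chemokine-like protein gene, stood at 472 and 519 CPM against 312 and 289 (log2 -0.72, adjusted p = 0.662, edgeR). Sox6 stood at 93.8 and 115 CPM against 42.0 and 64.7 (log2 -1.02). Ccdc91, Col8a1, Sun1, Epb41l1, Adamts6 and Slc4a3 were also among the 10 with the smallest p in that direction, at log2 differences of -0.69 to -1.61. Adamts6, a metalloprotease gene, was high in vehicle 1 alone (124 CPM, against 48.7, 42.0 and 46.2).

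**Figure D5:**
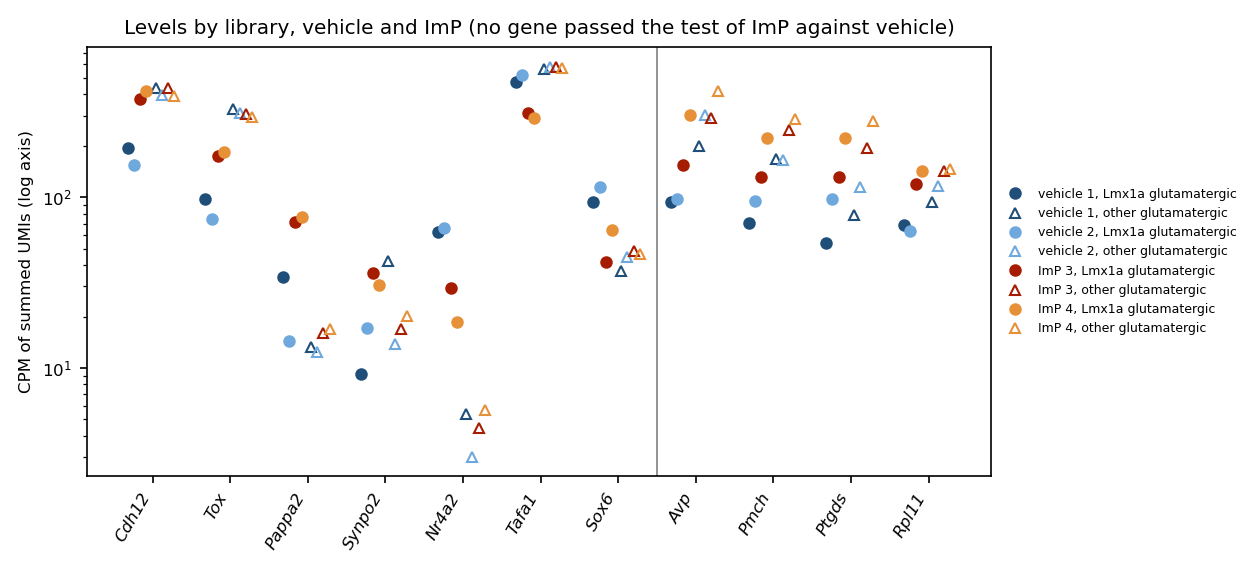
Levels in CPM of summed UMIs on a log axis, by library, in Lmx1a glutamatergic nuclei (filled circles) and other glutamatergic nuclei (open triangles). Left of the line, Cdh12, Tox, Pappa2 and Synpo2 have both ImP circles above both vehicle circles and Nr4a2, Tafa1 and Sox6 below; right of it, the circles and triangles of Avp, Pmch, Ptgds and Rpl11 are mostly higher in the ImP libraries, and no gene passed the test in the members.

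The remaining genes with small p on the higher side were Apod, Rplp2, Avp, Ptgds, Rpl11, Fau and Pmch. Avp and Pmch among them are peptide genes, and both were also high in oligodendrocyte-type nuclei, which should lack them. Avp, Ptgds and Pmch passed in the members without vehicle 2 (edgeR adjusted p = 0.00559, 3.42e-05 and 0.00614) and without ImP 3 (1.88e-05, 0.000242 and 0.00222). Pmch stood at 70.9, 94.6, 131 and 222 CPM in the members, at 168, 165, 248 and 289 in the other glutamatergic nuclei and at 365, 267, 497 and 574 in oligodendrocyte-type nuclei. Ptgds, a secreted lipid carrier of glia and meninges, stood at 53.8, 97.5, 131 and 222 CPM in the members and at 855, 1240, 942 and 2189 in oligodendrocyte-type nuclei. By list, both ImP libraries were above both vehicle libraries in 12 of 17 peptide genes (median log2 0.80), 54 of 79 ribosomal protein genes (0.56), 39 of 69 nuclear-encoded respiratory chain genes (0.42) and 4 of 6 glial and vascular markers (0.87), against 17.7% of all genes and a median of -0.01. Summed ribosomal protein RNA was 3627, 4274, 5840 and 5909 CPM in the members and 9438, 10883, 14794 and 13528 in oligodendrocyte-type nuclei, so it was high in the same libraries in both. The 25 glial and vascular markers summed to 318, 456, 561 and 563 CPM in the members and to 471, 595, 703 and 674 CPM in the other glutamatergic nuclei, so markers of other cell types were higher in the same libraries. The 13 mitochondrially encoded genes did not follow, at 6143, 9911, 7239 and 6091 CPM in the members. The ImP libraries are also those in which the members' median depth was lower, and the part of depth and of RNA from other cells in this was not tested.

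Counts of groups that did not overlap are read here against 17.7% of all genes above and 15.1% below. None of the 4 remaining label markers had groups apart (median log2 -0.14). Of 22 posterior diencephalic factors, 1 had both ImP libraries above and 6 had both below (median log2 -0.07), fewer above and more below than the share over all genes. Of 71 axon guidance and adhesion genes, 5 had both above and 6 both below, a smaller share in each direction than over all genes. Of 5 glucocorticoid-induced genes 2 had both ImP libraries above, and of 2 immediate early genes none had groups apart. The 15 immediate early genes summed to 197, 97.5, 115 and 129 CPM in the members, with vehicle 1 highest, and to 141, 128, 116 and 152 CPM in the other glutamatergic nuclei.

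Whether the ImP difference in the members departed from that in the other glutamatergic nuclei was tested as an interaction, and 4 of 17146 genes passed (0.0233%), 3 with a more positive difference in the members (0.0175%) and 1 with a more negative one (0.00583%). Cdh12 differed by 1.16 on the log2 scale (SE 0.20, edgeR adjusted p = 8.41e-05) and Tox by 1.08 (SE 0.23, adjusted p = 0.0127), Tox being at 327, 311, 308 and 295 CPM in the other glutamatergic nuclei. Synpo2, an actin-binding protein gene, differed by 2.41 (SE 0.50, edgeR adjusted p = 0.0111), with 9.15, 17.2, 35.7 and 30.8 CPM in the members and 42.4, 13.9, 16.8 and 20.3 in the others. Sox6, a SoxD factor, differed by -1.28 (SE 0.28, edgeR adjusted p = 0.0194), with 37.2, 44.4, 48.3 and 46.4 CPM in the others. The same libraries carry both kinds of nuclei, so the comparison is made within libraries.

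These calls did not hold up well. DESeq2 called none of the 4 (106 genes had an unadjusted p under 0.05). For Cdh12 the difference lost its call without ImP 4 (edgeR adjusted p = 0.116) and with 1 Lmx1a UMI as the minimum, which brings in the nuclei just outside the rule (log2 0.47, adjusted p = 0.597). It was also lost under stricter rules, with Lmx1a at 3 or more UMIs (0.82, adjusted p = 1) and with at least 2 Slc17a6 UMIs (0.93, adjusted p = 0.593, all edgeR). That of Tox was lost without any 1 of the libraries (adjusted p = 0.0749 without vehicle 1, 0.415 without vehicle 2, 0.493 without ImP 3 and 0.508 without ImP 4). The Synpo2 value fell to 0.60 without vehicle 1 (adjusted p = 0.991) and also lost its call without ImP 3, and the Sox6 call was lost without vehicle 1, vehicle 2 or ImP 3 (adjusted p = 0.282, 0.117 and 1, all edgeR).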

How the data were processed

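Single-nucleus RNA of 4 hypothalamus libraries was analysed. The deposited matrices hold UMI counts per gene and barcode (33696 genes, 11255 to 16348 barcodes per library). Cell Ranger 8.0.1, Seurat 5.0.0 and the GRCm39 build are named in the submitters' processing notes, and how strand was handled is not given in the sources used here. The members and lists were chosen with earlier results of these data known. A total of 26 symbols with more than 1 identifier were kept apart by identifier.

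UMIs were summed per library and kind of nuclei and tested with edgeR 4.0.16 (TMM, filterByExpr with a minimum count of 10, quasi-likelihood test, Benjamini-Hochberg over all genes tested, threshold 0.05), with DESeq2 1.42.0 as an alternative (R 4.3.3, Python 3.11.15). Comparisons between kinds of nuclei had the library as a block. Lmx1a, Slc17a6 and Snhg11 were left out of the calls. Some genes and 1 planned comparison within the members are not reported here. Besides genes of the lists, the text names for each comparison of kinds the 15 largest differences in each direction with a mean of at least 20 CPM and the same sign in every library, for ImP the 10 smallest p in each direction, and for the interaction every gene that passed. Oligodendrocyte-type nuclei held at least 2 UMIs of both Mog and Mobp. The test was checked on simulated counts with known changes. Their dispersion was fixed, the same for every gene and not estimated from these data, so the recovered counts hold for that setting only. For ImP it recovered 11 of 99 genes changed by a log2 of 1 and 58 of 88 changed by 2. Against the other glutamatergic nuclei it recovered 33 of 98 and 54 of 95, and for the interaction 0 of 99 and 10 of 97. Intervals are exact binomial ones and cover counting error only. Alternatives covered normalization, filters, the Lmx1a and Slc17a6 minimums, depth windows, thinning, left-out libraries and the block.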

Additional observations from a re-analysis of the deposited data

Results flagged for a closer look

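The difference of the ImP effect between Lmx1a glutamatergic and other glutamatergic nuclei passed the test for 4 genes: Cdh12 (log2 1.16), Synpo2 (2.41), Tox (1.08) and Sox6 (-1.28). In the members, both ImP libraries were above both vehicle libraries for the first 3 and below them for Sox6. With 2 libraries per group, no group was large enough to look for a single sample far from the others.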

How the results depend on the processing

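The ratio of ImP to vehicle shares (0.814) turned to 2.23 after thinning to 2000 UMIs, to 1.19 after that thinning with 1 Lmx1a UMI as the minimum and to 1.70 after thinning to 4000 UMIs, and ranged from 0.561 to 1.49 with 1 library left out. The 913 genes that differed from the other glutamatergic nuclei became 475 with DESeq2, 510 with at least 3 Lmx1a UMIs, 511 with at least 2 Slc17a6 UMIs and 528 with no replicate block (library), and 583 to 810 with 1 library left out. The log2 difference of Slc32a1 turned to 0.039 with at least 2 Slc17a6 UMIs. The count of ImP calls (0) became 10 with no filter on low counts and 2 to 23 with 1 library left out. With the shared first number of the library names as a replicate block it stayed at 0 (410 genes with an unadjusted p under 0.05); the labels do not say that this number pairs animals. The 4 interaction calls became 0 with DESeq2, 2 with 1 Lmx1a UMI as the minimum, 1 among nuclei of 3000 to 20000 UMIs, 2 with at least 2 Slc17a6 UMIs and 2 to 7 with 1 library left out. The cause of these changes was not tested, beyond the fewer nuclei or libraries that most of the settings leave. Of 1177 gene values recomputed against the other glutamatergic nuclei, 1071 kept their direction and call, 105 lost the call and 1 reversed. The comparison with Foxb1 nuclei was not run, since only 13 such nuclei were found (0, 4, 3 and 6). The settings with at least 2 Slc17a6 UMIs, any transmitter, 4000 UMIs and thinning with 1 Lmx1a UMI were chosen after seeing the data. The ImP comparison rests on 2 libraries per group, and the smallest, ImP 4, gave 324786 UMIs from 56 nuclei.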
